A study of Bos taurus with 3 samples.

Results

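The miR-2284/miR-2285 family was described in small RNA of extracellular vesicles of skimmed bovine milk (BM-EVs). A name belonged to the family when it began with miR-2284 or miR-2285 in the deposited tables of mature miRNAs, whatever letter or arm followed. By this rule 66 of the 745 mature miRNAs listed in at least 1 library were members, 16 of them named miR-2284 and 50 named miR-2285. The rule used names only and no measured value. All 3 libraries came from untreated milk of normal disease state, as the labels give it, and the milk was a purchased pasteurized product, so the cows and their number are not known. The vesicles were separated by acidification and salting-out with ammonium sulfate. With a single condition, the results are levels and their spread over libraries 1 to 3, and no difference between conditions could be tested. For the purity and yield of vesicles, the paper took 3 milk samples that differed in expiration date as biological replicates. The labels do not tie a library to a particular milk sample, so the spread may be technical in part. The tables hold no messenger RNAs by which the labelled source could be checked.

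miRNAs are short RNAs that guide Argonaute proteins to messenger RNAs, mainly through the seed near their 5′ end. The miR-2284/miR-2285 family is known from cattle and related ruminants, where it has many gene copies. In such names a letter marks closely related mature sequences, a final number marks gene copies that give the same mature miRNA, and 5p or 3p gives the arm of the hairpin. In the RefSeq gene table of the cattle assembly ARS-UCD2.0 the family had 191 of 1032 miRNA genes, or 18.5%, with 43 genes named MIR2284 and 148 named MIR2285. Outside the family the number with most genes was let-7, with 11. No mature sequence was at hand, so members were not grouped by seed.

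Each molecule was counted once by its unique molecular index (UMI), and values are raw UMI counts or shares of a library's mature miRNA UMIs. Libraries 1, 2 and 3 held 77225, 373239 and 102058 mature miRNA UMIs, beside 1013392, 1937450 and 863833 UMIs of other small RNAs assigned to Rfam. No table lists a count under 11. A member without a count in a library was therefore taken to have at most 10 UMIs there, was entered as 0 in sums and means, and is not known to be absent. Wilson 95% confidence intervals cover counting error only. Since names of this family can be near-identical in sequence, UMIs may be shared or split between them, and the separate values of members are uncertain to that extent.

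The family had many names and few molecules in BM-EVs. Of the miRNAs listed, members were 33 of 507 in library 1, 43 of 622 in library 2 and 57 of 628 in library 3, which is 6.51%, 6.91% and 9.08% of the names. Together they held 789, 2054 and 1636 UMIs in libraries 1, 2 and 3. The summed share of mature miRNA UMIs was 1.02% in library 1 (95% interval 0.953 to 1.10%), 0.550% in library 2 (0.527 to 0.575%) and 1.60% in library 3 (1.53 to 1.68%). The mean was 1.06% ± 0.527 (SD, n = 3 libraries). The 3 intervals did not overlap, so the libraries differed by more than counting error. The median listed member had 17, 24 and 18 UMIs in libraries 1, 2 and 3, against 26, 32 and 28 UMIs for the median of the other listed miRNAs.

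Library 2 had the most family UMIs, while library 3 had the highest level relative to each library total used here. The order of libraries 1 and 2 depended on that total. The ratio of library 2 to library 1 was 4.83 for mature miRNA UMIs and 1.91 for Rfam UMIs. As a share of all mature miRNA and Rfam UMIs the family held 0.0723%, 0.0889% and 0.169% in libraries 1, 2 and 3. Library 2 was then above library 1, with intervals of 0.0851 to 0.0928% in library 2 and 0.0675 to 0.0776% in library 1. TMM scaling in edgeR sets library totals by the typical miRNA instead of by the few abundant ones. Against these totals the family had 0.753, 0.980 and 1.22 UMIs per 100 in libraries 1, 2 and 3, and with DESeq2 size factors 0.718, 0.979 and 1.28. The low share of the family in library 2 is therefore relative to the mature miRNA total of that library.

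**Figure D1:**
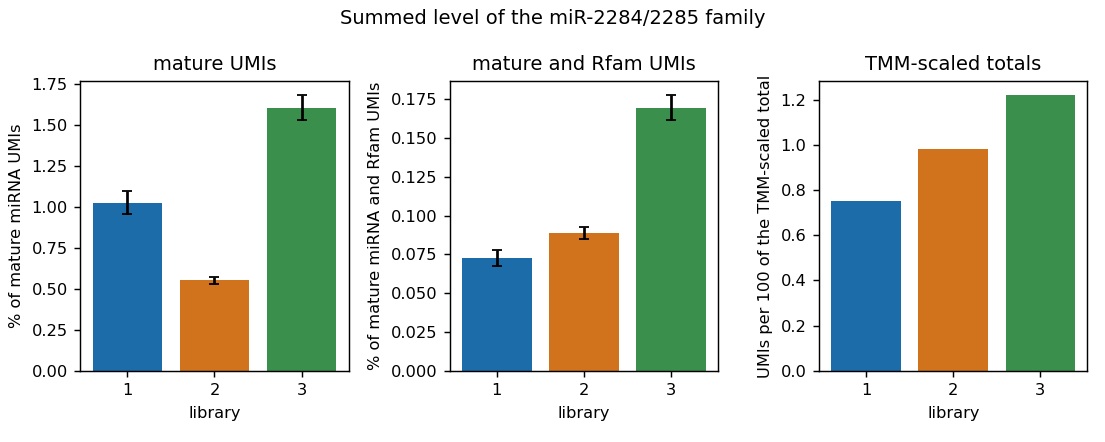
Summed level of the miR-2284/miR-2285 family in libraries 1, 2 and 3 (x axis), as a percentage of mature miRNA UMIs (left), as a percentage of mature miRNA and Rfam UMIs (middle) and as UMIs per 100 of the TMM-scaled library total (right). Bars are single libraries and error bars are Wilson 95% intervals, drawn for the shares only. Library 3 is highest in every panel, and library 2 is lowest only at the left, with 0.550%.

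The levels were compared with 2 other lists of miRNAs by number, the 202 listed names from miR-2286 to miR-2489 and from miR-2881 to miR-2904, and the 80 from miR-11900 to miR-12099. The family held fewer UMIs, with a mean share of 1.06% ± 0.527 against 5.17% ± 2.22 for the first list and 3.95% ± 1.64 for the second (SD, n = 3 libraries). All 3 lists had their lowest share in library 2. Library 3 had 1.57 times the share of library 1 for the family, against 1.00 times for the first of these lists and 0.843 times for the second. Part of the ratio of the family lay in members with no listed count in library 1. Over the 22 members listed in every library, library 3 had 1.15 times the share of library 1. With 10 UMIs entered wherever 1 of the 66 members was unlisted, the family share was 1.45%, 0.612% and 1.69% in libraries 1, 2 and 3. Family names listed in no library were not entered, so these values are not upper limits for the whole family.

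Members were listed less evenly over the libraries than miRNAs as a whole. Of the 66 members 22 were listed in every library, or 33.3%, where 58.4% of all 745 miRNAs were. A further 23 members were listed in 2 libraries and 21 in 1. Libraries 1 and 2 shared 27 members, which is 81.8% of the members in library 1 and 62.8% of those in library 2, against 92.6% and 75.8% for the other miRNAs. Libraries 1 and 3 shared 28, or 84.8% of library 1 and 49.1% of library 3, against 91.1% and 75.7% for the others. Libraries 2 and 3 shared 34, or 79.1% of library 2 and 59.6% of library 3, against 84.1% and 85.3%. The family was thus nearest to other miRNAs in its share of library 2 found again in library 3, and farthest in the shares of library 3 found again in libraries 1 and 2. The members had lower counts than other miRNAs, and 17 of 33, 17 of 43 and 32 of 57 listed members had under 20 UMIs, close to the listing minimum. The part of low counts in the uneven listing was not tested.

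miR-2285t, whose gene lies within the range of FCGR2B, an inhibitory Fc receptor of B cells, was the most abundant member. It had 46, 385 and 101 UMIs in libraries 1, 2 and 3, and a mean share of 0.0872% ± 0.0240 (SD, n = 3). It ranked 84 of 745 miRNAs by mean share. miR-2284x, within the range of TIAM1, an activator of the GTPase Rac, followed with 48, 335 and 72 UMIs and 0.0742% ± 0.0141. The order of these members was not fixed, since miR-2285t was above miR-2284x in 2 of 3 libraries and their intervals overlapped in all 3. Only these members ranked among the 100 miRNAs of highest mean share, and 8 members ranked among the first 200.

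In library 2 these leaders, picked by a mean share that includes library 2, stood above the rest of the family. miR-2285t and miR-2284x together had 720 of 2054 family UMIs there, or 35.1%, against 94 of 789 in library 1 and 173 of 1636 in library 3, or 11.9% and 10.6%. The UMI ratio of library 2 to library 1 was 8.37 for miR-2285t (exact 95% interval 6.15 to 11.6) and 6.98 for miR-2284x (5.15 to 9.65). Both intervals lie above the 4.83-fold ratio of all mature miRNA UMIs. The ratio was 2.60 (2.40 to 2.83) for the family as a whole and 1.92 without these members. These are differences between libraries of the same condition, and the choice of the leaders rests in part on library 2. Without library 2, miR-2284x had a mean share of 0.0664%, below miR-2284ac, miR-2285ai-5p, miR-2285bd, miR-2285ar and miR-2285by at 0.0693 to 0.0728%. miR-2285t stayed highest among the named members, at 0.0793%.

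miR-2284ac and miR-2285ai-5p came next, with almost the same counts. miR-2284ac, within the range of MTUS1, a microtubule-associated protein gene, had 33, 90 and 105 UMIs in libraries 1, 2 and 3. miR-2285ai-5p had 33, 89 and 103 UMIs. The counts differed by 0, 1 and 2 UMIs, where counting error of separate molecules has an SD of 8.12, 13.4 and 14.4 UMIs. Of the 45 pairs among the 10 most abundant members, 2 differed by less than this SD in every library. The other was miR-2285ar and miR-2285bd, with differences of 1, 7 and 4 UMIs and SDs of 9.54, 9.85 and 12.9. Only miR-2284ac and miR-2285ai-5p were also within 5% of each other in every library, and they were singled out after their values were seen. Of all 231 pairs of the 22 members listed in every library, 5 differed by less than the SD. No such count was made for other miRNAs. Close counts also occur outside the family, as in miR-16a (326, 2126 and 456 UMIs) and miR-16b (323, 2118 and 462 UMIs). Near-equal counts are therefore not called particular to the family. Shared assignment of the same UMIs was not tested. Mean shares were 0.0566% ± 0.0412 for miR-2284ac and 0.0558% ± 0.0402 for miR-2285ai-5p. Without library 3 they were 0.0334% and 0.0333%, below the next 4 members at 0.0352 to 0.0414%, so the place of this pair in the order rests on library 3. With the pair counted once, the mean share of the family was 1.00%.

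The next 4 members had a share in library 2 whose interval lay below those of libraries 1 and 3, which overlapped. miR-2285by had 48, 77 and 78 UMIs in libraries 1, 2 and 3, a mean share of 0.0531% ± 0.0290. miR-2285bd had 45, 45 and 85 UMIs, a mean share of 0.0512% ± 0.0361, and the highest ratio of library 3 to library 2 among members listed in every library, at 1.89. miR-2285ar had 46, 52 and 81 UMIs and 0.0510% ± 0.0336. Library 2 had the most mature miRNA UMIs, yet in none of these members did it have the most UMIs, and the same held for the last of the group. miR-2284ab, within the range of AFF1, a gene of the transcription elongation machinery, had 44, 63 and 70 UMIs and 0.0475% ± 0.0271.

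The last of the 10 most abundant members differed from this pattern in part or in whole. miR-2285bv, within the range of MAN2A1, a mannosidase of the Golgi, had 45, 24 and 28 UMIs in libraries 1, 2 and 3 and thus most UMIs in the smallest library. The interval of its share in library 2 also lay below the others, but that in library 3 lay below that in library 1. Its mean share was 0.0307% ± 0.0261, and 0.0169% without library 1. miR-2285au had 24, 74 and 23 UMIs and 0.0245% ± 0.00587, and the intervals of its share overlapped between all libraries. Of the 9 pairs of neighbours in the order of the 10 members, none kept its order in every library, and in 5 the intervals overlapped in all 3 libraries. The 10 members together held 412, 1234 and 746 UMIs, or 52.2%, 60.1% and 45.6% of the family.

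**Figure D2:**
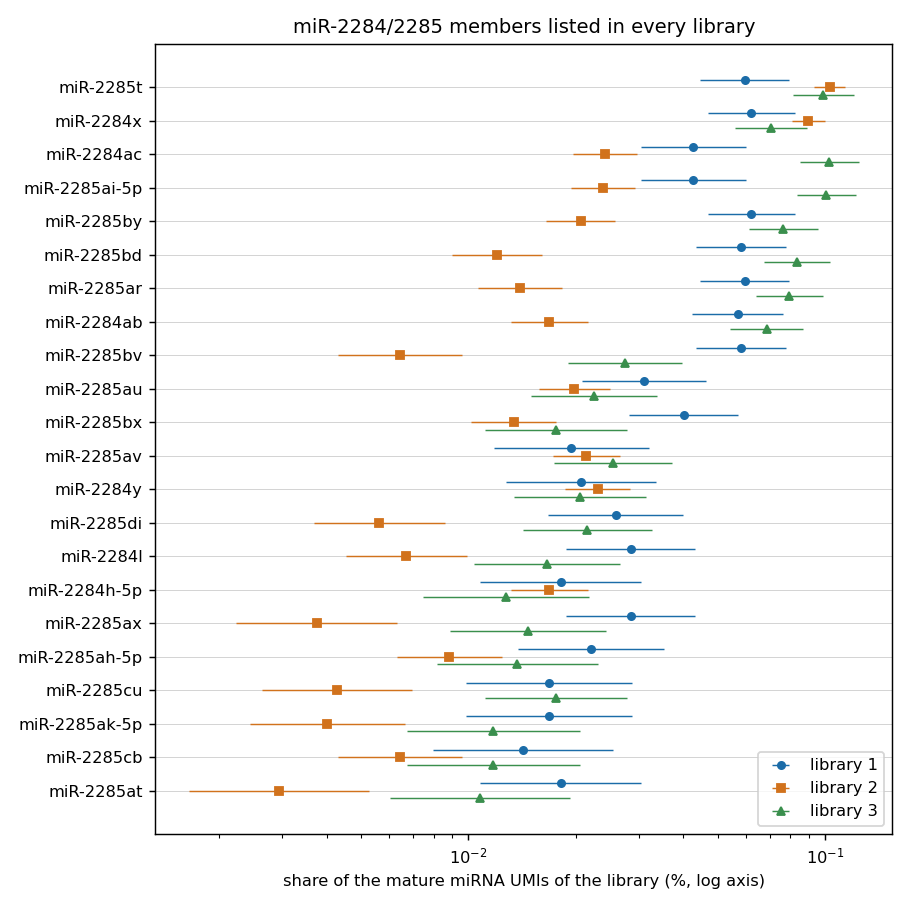
Share of mature miRNA UMIs (x axis, percent, log axis) of the 22 members listed in every library, ordered by mean share from the top. Points are libraries 1 (circles), 2 (squares) and 3 (triangles) and bars are Wilson 95% intervals. Library 2 lies to the left of the others for 17 of the 22 members, while miR-2285t, miR-2284x, miR-2285av and miR-2284y have a higher share in library 2 than in library 1.

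Most members followed miRNAs as a whole in their drop in library 2. Among the 22 members listed in every library, 17 had their lowest share in library 2, or 77.3%, where 80.0% of the 435 miRNAs listed in every library did. The interval of the share in library 2 lay below that in library 1 for 15 members, where 66.4% of all such miRNAs had this, and above it for 1 member, miR-2285t, where 9.20% had this. The share was higher in library 2 than in library 1 for 4 members, or 18.2%, against 16.1% overall. In UMIs, the median ratio of library 2 to library 1 was 1.61 for the 22 members and 1.85 for all 435 miRNAs, both far below the 4.83 of the totals. The median over all 435 miRNAs corresponds to a log2 ratio of shares of -1.39, and that over the members to -1.59. The shares of the members are near the background, so the low share in library 2 is not called particular to the family.

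Besides the leaders, miR-2285av and miR-2284y had a higher share in library 2 than in library 1, and both are named here after their values were seen. miR-2285av had 15, 80 and 26 UMIs in libraries 1, 2 and 3. miR-7862, which is outside the family, had exactly the same 15, 80 and 26 UMIs. Whether these are the same molecules was not tested, so the counts of miR-2285av may not be a separate signal of the family. miR-2284y had 16, 86 and 21 UMIs, a share of 0.0214% ± 0.00138, and the smallest SD of the members listed in every library. In miR-2285av and miR-2284y, the intervals overlapped between all libraries. miR-2284h-5p had 14, 63 and 13 UMIs and the lowest ratio of library 3 to library 2, at 0.206, with a share of 0.0159% ± 0.00282. In these 3 members library 2 had the most UMIs, unlike in miR-2285bd or miR-2285bv.

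**Figure D3:**
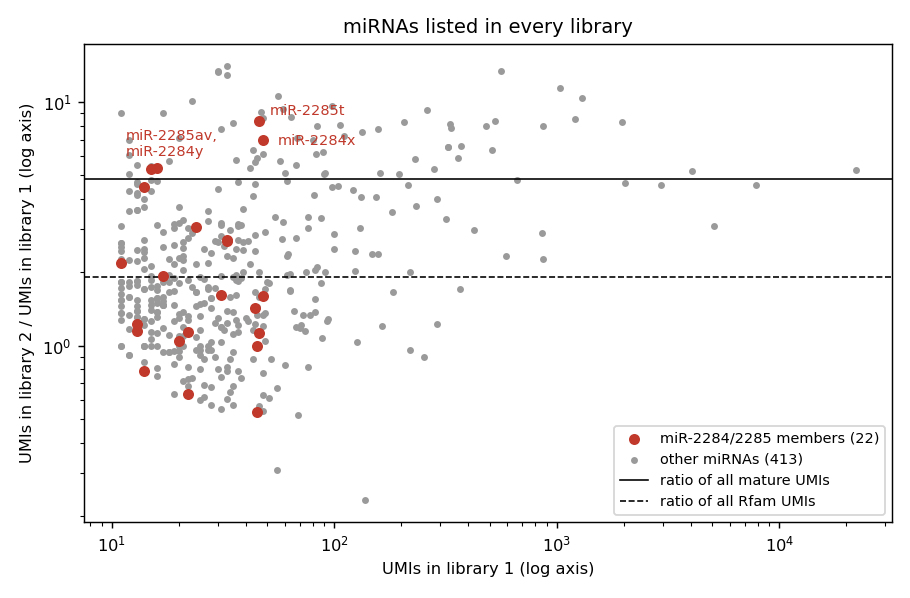
Ratio of UMIs in library 2 to UMIs in library 1 (y axis, log axis) against UMIs in library 1 (x axis, log axis) for the 22 members and 413 other miRNAs listed in every library. The solid line is the ratio of all mature miRNA UMIs (4.83) and the dashed line that of all Rfam UMIs (1.91). Members have at most 48 UMIs in library 1, and their ratios run from 0.533 for miR-2285bv to 8.37 for miR-2285t.

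Between libraries 3 and 1 most members listed in every library had overlapping intervals. The interval of the share lay above that in library 1 for 3 members, with 12.4% of the 435 miRNAs as background, and below it for 2, with 10.1% as background. Against library 2, library 3 was above for 13 members and below for 0, where 56.1% and 7.36% of all such miRNAs were. Library 3 had the highest share for 8 members, or 36.4%, against 34.3% overall. Across the 22 members, Spearman's rho of UMIs was 0.807 between libraries 1 and 3, 0.715 between libraries 2 and 3, and 0.545 between libraries 1 and 2. It was 0.785, 0.795 and 0.787 for the same pairs across the 413 other miRNAs. By rho the members were thus lower between libraries 1 and 2 and, less so, between libraries 2 and 3. Pearson's correlation of log2 UMIs was lower for the members in every pair. In the same order of pairs it was 0.8425, 0.6922 and 0.5579 for the members, against 0.9106, 0.9069 and 0.9002 for the others. These values describe low counts of related names that share a library, and carry no test. The chi-square per degree of freedom against equal proportions of the members was 4.04 between libraries 1 and 3, 14.1 between libraries 1 and 2, and 16.0 between libraries 2 and 3, where counting noise alone gives about 1. The 413 other miRNAs, with higher counts, had 10.4, 43.6 and 39.5 for these pairs, above the members in each.

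Library 3 held members that the other libraries did not list. Of the 66 members 17 were listed in library 3 only, or 25.8%, against 11.0% of all 745 miRNAs, while 4 were listed in library 2 only, against 9.40% of all miRNAs, and 0 in library 1 only, against 2.15%. These 17 members had 12 to 60 UMIs with a median of 18, and they summed to 357 UMIs or 21.8% of the family in library 3. miR-2285dh led them with 60 UMIs in library 3 and at most 10 in libraries 1 and 2. Its share in library 3 was 0.0588%, at least 4.54-fold higher than the share that 10 UMIs would have in library 1 and at least 21.9-fold higher than that in library 2. For the other members listed in library 3 only, the bound against library 1 ran from 0.908 (miR-2285b) to 1.97 (miR-2285cv). A bound near or under 1 does not show a lower share in library 1. Against library 2 the bound ran from 4.39 to 9.51 for the same members. A count of 11 UMIs in library 3, the lowest listed, would already give 4.02 there, so a bound well above 1 follows from the selection. These bounds come from the listing minimum and carry no counting error. They are relative to mature miRNA totals, against which most miRNAs listed in every library had their lowest share in library 2. The next were miR-2285cv with 26 UMIs, miR-2285db and miR-2285de with 25 each, miR-2285bs with 24, miR-2285dj with 23 and miR-2285ct with 21, named after their values were seen. The 4 members listed in library 2 only had 13 to 19 UMIs.

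**Figure D4:**
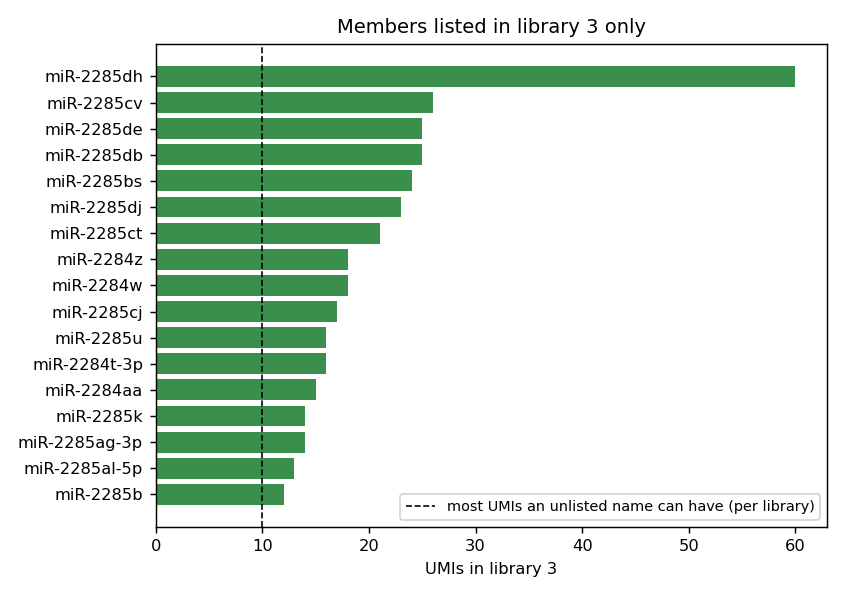
UMIs in library 3 (x axis) of the 17 members listed in library 3 only. The dashed line marks 10 UMIs, the most that an unlisted name can have in libraries 1 and 2. miR-2285dh stands apart with 60 UMIs, and the other bars lie between 12 and 26.

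A group of 6 members, or 9.09%, was listed in libraries 1 and 3 but not in library 2, the library with most mature miRNA UMIs, against 3.36% of all 745 miRNAs. miR-2285cg had 16 UMIs in library 1 and 53 in library 3, and at most 10 in library 2, where 10 UMIs are a share of only 0.00268%. Its share was at least 7.73-fold higher in library 1 and at least 19.4-fold higher in library 3 than this bound. A count of 11 UMIs would already give 5.32-fold in library 1 and 4.02-fold in library 3, so part of these folds follows from the selection. The others are named after their values were seen. In libraries 1 and 3, miR-2285y had 29 and 28 UMIs, miR-2285bm 14 and 19, miR-2285az 11 and 20, miR-2285h 17 and 11, and miR-2285s 12 and 15. Fewer UMIs in library 2 is how these 6 were chosen, and listed counts as low as 11 differ little from the limit of 10. The genes of miR-2285az and miR-2285bm both lie within the range of ESRRG, an orphan nuclear receptor gene. A gene of miR-2284z likewise shares the range of PLEKHA5 with that of miR-2285y, but miR-2284z was listed in library 3 only. In the other ranges shared by 2 family names, at most 1 name was listed, so no link of shared range to listing is claimed. The other members missing in 1 library were 12 without a listed count in library 1, or 18.2% of members against 11.5% of all miRNAs, with 11 to 40 UMIs in library 2 and 11 to 27 in library 3. A further 5 had no listed count in library 3, or 7.58% of members against 4.16% of all miRNAs, with 11 to 20 UMIs in library 1 and 11 to 26 in library 2.

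Only 9 members carried an arm in their name, 6 of them the 5p and 3 the 3p arm, and for 2 hairpins both arms were listed. miR-2284h-5p was listed in every library, with the counts given above, while miR-2284h-3p had 21 UMIs in library 2, 18 in library 3 and at most 10 in library 1. In library 2 the 5p arm was thus the higher, with 63 UMIs, and in library 3 the 5p arm had 13 UMIs and the 3p arm 18, with overlapping intervals. miR-2284t, within the range of SPON1, the gene of a matrix protein, had the 5p arm at 25 UMIs in library 2 and 13 in library 3 and the 3p arm at 16 UMIs in library 3 only. The 5p arm of both hairpins had more UMIs in library 2, and fewer in library 3, than the 3p arm. In library 3 the counts were close to the listing minimum and the intervals of the arms overlapped for both hairpins, so their order there is uncertain. miR-2285bx, within the range of LMO1, a regulator of transcription, had the highest share in library 1 of the members outside the first 10, with 31, 50 and 18 UMIs in libraries 1, 2 and 3.

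The names with most genes were not the most abundant ones. RefSeq names were found for 61 of the 66 members, and the hairpins miR-2285ai, miR-2285au, miR-2285bd, miR-2285cj and miR-2285dh had no entry. The 191 family genes gave 138 distinct names, of which 59 were listed in BM-EVs, or 42.8%, against 603 of 785 names of other miRNAs, or 76.8%. Of the names with a single gene 47 of 113 were listed, or 41.6%, and of those with several genes 12 of 25, or 48.0%. miR-2284y and miR-2284z have 7 genes each. miR-2284y was listed in every library, with a mean share of 0.0214%, while miR-2284z was listed in library 3 only, with 18 UMIs. miR-2285n, also with 7 genes, and miR-2285o, with 5, were listed in no library. miR-2285t, miR-2284x and miR-2284ac have 1 gene each, as do 113 of the 138 names. The family genes lay within the range of a protein-coding gene in 125 of 191 cases, or 65.4%, against 549 of 841 genes of other miRNAs, or 65.3%. The table gives no strand, so a gene that contains a miRNA gene need not be transcribed in the same direction.

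The 50 miR-2285 names held more UMIs in every library than the 16 miR-2284 names. They had 573, 1278 and 1226 UMIs in libraries 1, 2 and 3 and a mean share of 0.762% ± 0.430 (SD, n = 3). The miR-2284 names had 216, 776 and 410 UMIs and 0.296% ± 0.0980. The 49 members not named by the rule for named members had between 11 and 86 UMIs where listed, and none of them exceeded a share of 0.0376% in a library.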

How the data were processed

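Small RNA libraries were built by the authors from 100 ng of total RNA per library with a kit that adds UMIs. After adapter trimming and quality filtering, they matched reads to miRBase first and to Rfam next. Tools given in the submitters' processing notes are Bowtie 1.2.2, cutadapt 2.7 and FastQC. The deposited values are counts of UMIs for each mature miRNA or Rfam entry, without normalization. Database versions, mismatches, the use of strand and the handling of multiple matches are not given in the sources used here. Their effect on near-identical members is therefore unknown.

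Libraries were numbered by the replicate in the labels. Shares were taken within each library and averaged with equal weight. Intervals of shares are Wilson intervals and those of ratios of UMIs are exact binomial ones. The chi-square and the scaling were tested on simulated counts without a listing minimum. Those for the scaling had equal base depth, with the few highest miRNAs raised in a single library. The scaling was therefore not tested for unequal totals or for the listing minimum. TMM factors came from edgeR 4.0.16 and size factors from DESeq2 1.42.0, both in R 4.3.3 and over the 435 miRNAs that all 3 libraries list. Other values came from Python 3.11.15 with scipy 1.17.1, numpy 2.4.6 and pandas 2.3.3, and figures from matplotlib 3.10.9. Gene names and neighbours came from RefSeq (ARS-UCD2.0), and no coordinates are given, as the build of the files is not known.

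Named members are the 10 of highest mean share, the 3 others of highest share in a single library, those listed in both arms, and the highest and lowest ratio of library 3 to library 2 among members listed in every library. The members, lists and rules were chosen with earlier results of these data known. Alternatives were other denominators and scalings, pooled UMIs, other listing minimums, 10 UMIs for unlisted members, leaving out the leading members and leaving out each library.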

Additional observations from a re-analysis of the deposited data

How the results depend on the processing

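With 3 libraries of 1 condition, low counts and a listing minimum of 11 UMIs set the limits of these values, and a share at that minimum has a wide counting error. No paired analysis was possible because all 3 libraries belong to 1 condition. Counting members of identical sequence once was not run, as no mature sequences were at hand. The mean family share was 0.110% with mature and Rfam UMIs as denominator, which is larger by construction, and stayed within 1 SD of 1.06% under the other settings, from 0.743% for miRNAs listed in every library to 1.31% without library 2. Leaving out each library gave 0.786 to 1.31%. At least 20 or 30 UMIs left 40 or 18 members listed in any library and 11 or 8 in every library, and leaving out a library gave 49 to 66 and 27 to 34. Without library 1, 34 members were listed in both others, as fewer libraries had to list a member. The UMI ratio of library 2 to library 1, 2.60, was 2.04 with 10 UMIs for unlisted members, 1.92 without the leading 2 members, and 1.30 as a ratio of TMM-scaled shares. The chi-square per degree of freedom over the 3 libraries, 12.8, was 6.99 without miR-2285t and miR-2284x, and 4.04 to 16.0 without 1 library, with 4.04 without library 2. These chi-square settings, the TMM ratio and the single counting of the near-equal pair were chosen after seeing the data. Of 131 alternative values for 17 named members, 119 stayed within 1 SD, and the 12 others all had the larger denominator. Leaving out 1 of 3 libraries cannot move a mean by 1 SD, so these counts do not measure robustness. The printed means of miR-2284ac and miR-2285ai-5p were over 1.5 times lower without library 3, and that of miR-2285bv without library 1. With pooled UMIs, miR-2285bd, miR-2285ar and miR-2285bv fell to 0.0317%, 0.0324% and 0.0176%. Members listed in fewer libraries moved more. Without library 3 the mean share was 0 for miR-2285dh and miR-2284t-3p, 0.0104% for miR-2285cg and 0.00281% for miR-2284h-3p.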
